A study of Mus musculus with 16 samples.

Results

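The osteocyte genes described here are 8 genes whose products mark the cells embedded in bone matrix or are their best known secreted signals: Sost, Dmp1, Mepe, Phex, Fgf23, Pdpn, Tnfsf11 and Tnfrsf11b. They were taken by gene name from the deposited table of each tissue, which gave 8 of 38933 genes in cortical bone and 4 of 21011 genes in skeletal muscle, where Dmp1, Phex, Pdpn and Tnfrsf11b are listed. Female C57BL/6 mice aged 18 months with no engineered allele named in the labels received BAY2416964 (BAY), an orally active antagonist of the aryl hydrocarbon receptor (AhR), at 30 mg/kg by gavage on 5 days per week for 8 weeks. Control mice of the same strain, sex and age received its vehicle (VEH), a mixture of ethanol, Solutol and water. Bulk RNA-seq of polyadenylated RNA was made from 4 mice per group and tissue, with 1 library per mouse. The bone samples were cortical shafts from which marrow cells had been taken for culture and digested with collagenase before RNA extraction, and the muscle was tibialis anterior.

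Osteocytes arise from osteoblasts that become buried in the matrix they lay down, and they stay connected by long dendritic processes. They restrain bone formation through sclerostin, tune mineralization through matrix proteins and the protease Phex, regulate kidney phosphate handling through the hormone Fgf23, and control osteoclast formation through the ligand RANKL and its decoy receptor osteoprotegerin. AhR is a ligand-activated transcription factor that binds a short core motif in DNA together with its partner Arnt.

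The promoters of the genes whose values moved together between bone libraries (Sost, Dmp1, Mepe and Phex) and that of Fgf23 are shown because each could hold the AhR core GCGTG or the Runx motif TGTGGT, which is read by the osteoblast factor Runx2. The sequences are RefSeq windows of 300 bases, 250 before and 50 after a gene's start, on GRCm38.p6. Capitals mark a match on either strand (CACGC and ACCACA are the reverse complements), and a sequence wholly in lower case has none. RefSeq windows were found for 7 of the 8 genes, and for Dmp1 the window of its downstream start is printed.
Sost, chr11:101966966-101967265, minus strand: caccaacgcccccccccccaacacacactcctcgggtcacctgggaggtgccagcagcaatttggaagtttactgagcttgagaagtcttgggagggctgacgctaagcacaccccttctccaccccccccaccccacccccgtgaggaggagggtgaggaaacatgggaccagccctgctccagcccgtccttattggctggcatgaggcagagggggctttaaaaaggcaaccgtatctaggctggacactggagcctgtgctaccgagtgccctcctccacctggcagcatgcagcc
Dmp1, chr5:104202367-104202666, plus strand: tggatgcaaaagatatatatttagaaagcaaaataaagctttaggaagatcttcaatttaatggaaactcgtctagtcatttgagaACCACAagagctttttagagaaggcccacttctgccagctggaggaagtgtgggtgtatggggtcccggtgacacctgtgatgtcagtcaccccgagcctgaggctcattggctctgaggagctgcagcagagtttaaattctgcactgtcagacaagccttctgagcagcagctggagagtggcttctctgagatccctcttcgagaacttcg
Mepe, chr5:104325079-104325378, plus strand: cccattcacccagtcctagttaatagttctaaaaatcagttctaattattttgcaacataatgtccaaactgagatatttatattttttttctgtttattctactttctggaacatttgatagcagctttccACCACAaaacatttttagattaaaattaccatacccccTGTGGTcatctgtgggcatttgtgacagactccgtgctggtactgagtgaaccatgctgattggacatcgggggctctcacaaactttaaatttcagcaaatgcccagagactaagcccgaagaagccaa
Phex, chrX:157415237-157415536, minus strand: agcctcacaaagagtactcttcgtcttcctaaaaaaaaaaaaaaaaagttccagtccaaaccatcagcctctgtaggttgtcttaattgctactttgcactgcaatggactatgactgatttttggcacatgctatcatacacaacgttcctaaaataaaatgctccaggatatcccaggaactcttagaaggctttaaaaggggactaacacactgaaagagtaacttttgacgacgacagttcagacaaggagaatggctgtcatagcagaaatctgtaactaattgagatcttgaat
Fgf23, chr6:127072652-127072951, plus strand: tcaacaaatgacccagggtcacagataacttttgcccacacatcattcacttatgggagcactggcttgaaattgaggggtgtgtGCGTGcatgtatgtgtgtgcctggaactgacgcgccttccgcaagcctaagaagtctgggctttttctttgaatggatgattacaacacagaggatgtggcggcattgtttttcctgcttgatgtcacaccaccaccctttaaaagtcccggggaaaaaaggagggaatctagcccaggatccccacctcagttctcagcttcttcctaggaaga
The AhR core was found in the Fgf23 window only among the windows of these 7 genes, and it is present in 32.4% of 32851 promoter windows of the same length. The Runx motif was found in the Dmp1 window shown and at 2 places in the Mepe window. It was absent from the window of the upstream Dmp1 start, which is not printed, and 16.8% of all windows hold it. These matches are letters in a window, and no measurement here shows binding.

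The bone libraries differed widely in depth and content. Between 930306 and 6951925 reads were counted on genes per bone library, so that 3 reads corresponded to 0.432 to 3.22 CPM (counts scaled to a common library total), a limit that covers counting error only. Olfactory receptor genes, whose known place of expression is the nose, took 0.0513% of the CPM in VEH mouse 1 and 0.544% to 3.52% in the other bone libraries, with the highest shares in BAY mouse 4, VEH mouse 2 and VEH mouse 4. The median log2 value over genes averaging 1 CPM or more ran from -0.48 in VEH mouse 1 to 4.10 in BAY mouse 4. All 12 skeletal muscle fibre markers were listed in bone, and their summed CPM was 53.9 to 10649 in VEH-treated mice (highest in mouse 1) and 119 to 43434 in BAY-treated mice, highest in mice 1 and 2, with Tnnc2 and Tnnt3 at 0 in some libraries. Muscle libraries held 6131900 to 9262395 reads, and the column of muscle VEH mouse 3 is named as a replacement.

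Sost, Dmp1 and Mepe were read above the olfactory receptor level in all 8 bone libraries, Tnfsf11 and Tnfrsf11b in 7 each, and Phex in 4. This level is the summed CPM of 1353 olfactory receptor genes divided by their summed exon length, and it gives a reference for genes with no known use in bone. Per kilobase of exon, the median level was highest for Dmp1 at 33.6 CPM (range 10.6 to 647) and next for Sost at 21.4 CPM (6.79 to 433). Mepe followed at 11.5 CPM (6.64 to 301), Tnfrsf11b at 8.15 CPM (4.53 to 24.7), Phex at 6.09 CPM (1.45 to 48.9) and Tnfsf11 at 5.09 CPM (0.770 to 11.98). Fgf23 at 2.58 CPM per kilobase (0.267 to 3.75) and Pdpn at 1.28 (0.174 to 3.69) were the lowest. All neighbours in this order had overlapping ranges. Within libraries, Dmp1 was above Sost per kilobase in 7 of 8, the exception being VEH mouse 2. Sost, Dmp1 and Mepe came closest to the olfactory receptor level in VEH mouse 2 and BAY mouse 4. There Sost was at 2.07 and 1.83 times that level and Dmp1 at 1.98 and 2.85 times. Mepe was at 1.31 and 1.27 times, on 18 reads in each library.

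**Figure D1:**
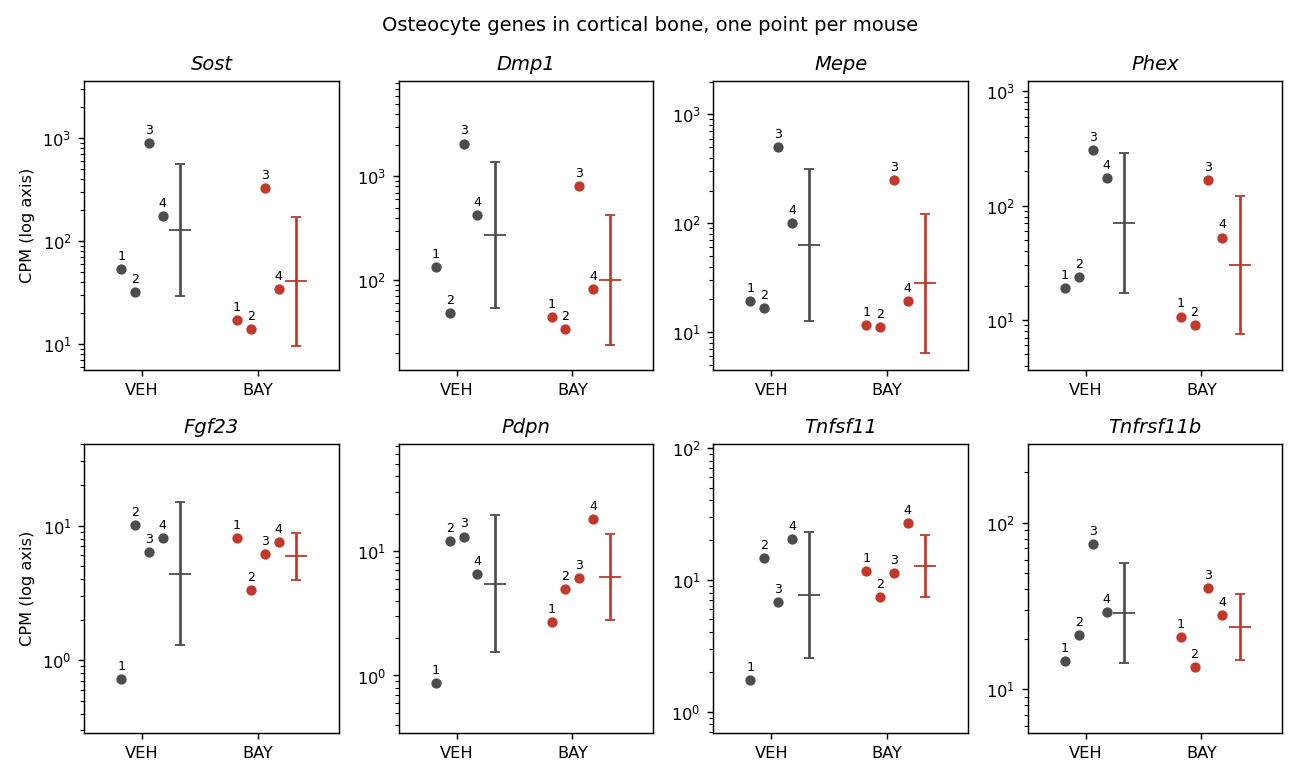
CPM of the 8 genes in cortical bone on log axes that differ between panels, with 1 point per mouse (number = mouse), grey for VEH and red for BAY. The bar at the side of each group is the mean ± SD of the log2 values over 4 mice, and for every gene the groups overlap.

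Sost (ENSMUSG00000001494, mm39 chr11:101853284-101857841, minus strand) encodes sclerostin, the osteocyte protein that binds Lrp5 and Lrp6 and blocks Wnt signalling in osteoblasts. It was measured at 54.1, 32.2, 898 and 175 CPM in VEH mice 1 to 4 (376, 35, 2534 and 240 reads). In BAY mice 1 to 4 it was measured at 17.4, 14.1, 332 and 34.4 CPM (39, 34, 651 and 32 reads). Mouse 3 of each group was far above its group, VEH mouse 4 came next, and the BAY range of 14.1 to 332 overlapped the VEH range. The means were 289.7 ± 410.2 CPM (SD, n = 4) in VEH and 99.3 ± 155 CPM (SD, n = 4) in BAY. On the log2 scale BAY minus VEH was -1.65 (SE 1.12, 95% confidence interval -4.07 to 0.76), which did not pass the threshold (limma P = 0.163, adjusted P = 0.887, exact two-sided permutation P = 0.314).

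Dmp1 (ENSMUSG00000029307, chr5:104350479-104361968, plus strand) encodes an acidic matrix phosphoprotein of the SIBLING family that osteocytes secrete and that is needed for normal mineralization. Its values were 133, 47.9, 2077 and 423 CPM in VEH mice 1 to 4 and 44.2, 33.9, 814 and 82.8 CPM in BAY mice 1 to 4. The order of the 8 libraries was that of Sost, with mouse 3 highest in each group. In reads these were 924, 52, 5862 and 581 against 99, 82, 1598 and 77, which makes Dmp1 the most deeply counted of the 8 genes. The means were 670.2 ± 952 CPM (SD, n = 4) in VEH and 244 ± 381 CPM (SD, n = 4) in BAY, and the log2 difference was -1.45 (SE 1.16, 95% confidence interval -3.96 to 1.07, limma P = 0.236, adjusted P = 0.887, exact permutation P = 0.371).

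Mepe (ENSMUSG00000053863, chr5:104473195-104486477, plus strand), another SIBLING gene on the same chromosome as Dmp1, encodes a phosphoglycoprotein that regulates mineralization. It was measured at 19.3, 16.6, 507 and 99.7 CPM in VEH mice 1 to 4 and at 11.6, 11.2, 248 and 19.3 CPM in BAY mice 1 to 4. VEH mouse 1 and BAY mouse 4 lay at the same 19.3 CPM, although they rested on 134 and 18 reads. The log2 difference was -1.17 (SE 1.18, 95% confidence interval -3.72 to 1.37, limma P = 0.337, adjusted P = 0.887, exact permutation P = 0.514).

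Phex (ENSMUSG00000057457, chrX:155945071-156198308, minus strand) encodes the membrane endopeptidase whose loss causes X-linked hypophosphataemia. Its values were 19.0, 23.9, 308 and 176 CPM in VEH mice 1 to 4 and 10.7, 9.10, 169 and 52.7 CPM in BAY mice 1 to 4. In VEH mouse 2 and BAY mice 1, 2 and 4 it was at 0.506 to 0.924 times the olfactory receptor level, against 4.85 to 34.9 times in the other libraries. The log2 difference was -1.21 (SE 1.08, 95% confidence interval -3.55 to 1.13, limma P = 0.285, adjusted P = 0.887, exact permutation P = 0.457).

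Fgf23 (ENSMUSG00000000182, chr6:127049865-127058371, plus strand) encodes the bone hormone that makes the kidney excrete phosphate and lowers active vitamin D. It was counted with 5, 11, 18 and 11 reads in VEH mice 1 to 4 and 18, 8, 12 and 7 reads in BAY mice 1 to 4, or 0.719, 10.1, 6.38 and 8.01 CPM against 8.05, 3.31, 6.11 and 7.52 CPM. VEH mouse 1 was the lowest in CPM by far and the other 7 libraries lay close together. Fgf23 was above the olfactory receptor level in VEH mice 1 and 3 only, at 2.02 and 1.69 times that level, and at 0.308 to 0.965 times in the other libraries. The log2 difference was 0.43 (SE 1.14, 95% confidence interval -2.04 to 2.90, limma P = 0.713, adjusted P = 0.934, exact permutation P = 0.886).

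Pdpn (ENSMUSG00000028583, chr4:142994001-143026134, minus strand) encodes podoplanin, a membrane glycoprotein of young osteocytes that takes part in forming their dendrites and is also present on lymphatic endothelium. It was measured at 0.863, 11.97, 13.1 and 6.55 CPM in VEH mice 1 to 4 and at 2.68, 4.96, 6.11 and 18.3 CPM in BAY mice 1 to 4. These values rested on 6 to 37 reads, and the highest library was in the BAY group. Only VEH mice 1 and 3 were above the olfactory receptor level, at 1.32 and 1.89 times, and the log2 difference was 0.19 (SE 1.16, 95% confidence interval -2.32 to 2.69, limma P = 0.875, adjusted P = 1, exact permutation P = 0.8286). The summed CPM of the 5 lymphatic endothelial markers was 27.03 to 328 in VEH and 124 to 346 in BAY, with VEH mouse 1 lowest and BAY mouse 4 highest as for Pdpn. The olfactory receptor level had the same extremes, at 0.132 and 9.06 CPM per kilobase. These markers had a median level of 0.726 times it, and their part in the values of Pdpn was not tested.

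Tnfsf11 (ENSMUSG00000022015, chr14:78514885-78545483, minus strand) encodes RANKL, the ligand that drives osteoclast formation. Its values were 1.73, 14.7, 6.73 and 20.4 CPM in VEH mice 1 to 4 and 11.6, 7.44, 11.2 and 26.9 CPM in BAY mice 1 to 4. Read numbers were 12 to 28 in all 8 libraries, and the level was 0.873 to 2.14 times that of the olfactory receptor genes outside VEH mouse 1, where it was 5.83 times. The log2 difference was 0.73 (SE 0.93, 95% confidence interval -1.28 to 2.73, limma P = 0.449, adjusted P = 0.887, exact permutation P = 0.486).

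Tnfrsf11b (ENSMUSG00000063727, chr15:54114015-54141880, minus strand) encodes osteoprotegerin, the secreted decoy receptor that captures RANKL. It was measured at 14.8, 21.2, 74.4 and 29.1 CPM in VEH mice 1 to 4 and at 20.6, 13.6, 40.2 and 27.9 CPM in BAY mice 1 to 4. Mouse 3 was again the highest in each group, but the highest library was 5.45 times the lowest, the smallest such span of the 8 genes. Against the olfactory receptor level it was at 0.934 times in VEH mouse 2 and 1.02 times in BAY mouse 4. In the other libraries it was at 1.67 to 37.3 times that level. The log2 difference was -0.28 (SE 0.67, 95% confidence interval -1.72 to 1.16, limma P = 0.685, adjusted P = 0.921, exact permutation P = 0.629).

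**Figure D2:**
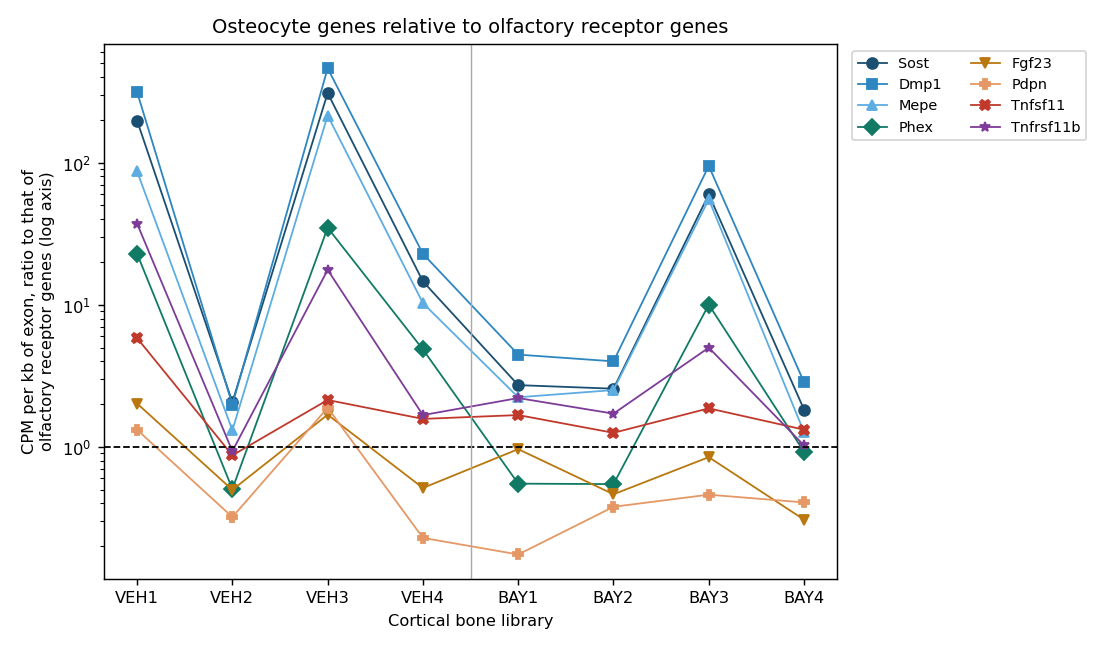
Level of each gene per kilobase of exon, as a ratio to that of olfactory receptor genes in the same bone library (log axis, dashed line at equality, lines only join the points of a gene). Sost, Dmp1 and Mepe stay above the line in all 8 libraries, with Mepe at 1.31 in VEH mouse 2 and 1.27 in BAY mouse 4. Fgf23 and Pdpn are above it in 2.

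None of the 8 genes was called in bone, that is at an unadjusted limma P under 0.05 with a fold change of at least 2, against 249 of 38933 genes (0.64%). No gene in bone had an adjusted P under 0.05 in limma, 249 had an unadjusted P under 0.05, and among the 8 the adjusted P was 0.887 to 1. The groups overlapped for each of the 8, and did not overlap for 0.406% of all genes. The sign was lower in BAY for 5 of the 8 and higher for Fgf23, Pdpn and Tnfsf11. The median of the 8 was -0.73, beside 0.84 over all bone genes. Without VEH mouse 1 the median over all bone genes was -0.09, and the 8 ran from -2.07 for Sost to 0.01 for Tnfsf11. The smallest P that an exact permutation of 4 against 4 libraries can give is 0.0286, and the P of the 8 genes ran from 0.314 for Sost to 0.886 for Fgf23.

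The 8 genes were also compared after each bone library was centred on its own median, taken over genes averaging 1 CPM or more. All 8 then lay lower in BAY, at -2.50 for Sost (exact permutation P = 0.229), -2.30 for Dmp1 (0.314), -2.06 for Phex (0.229) and -2.02 for Mepe (0.371), and the adjusted P in limma was 0.782 for each of these 4. The difference was -1.13 for Tnfrsf11b, -0.66 for Pdpn, -0.42 for Fgf23 and -0.13 for Tnfsf11, the latter 3 having turned sign. With centring on the mean of 16 osteoblast and matrix genes, Sost, Dmp1, Mepe and Phex were at -0.73, -0.53, -0.25 and -0.29, and Fgf23, Pdpn, Tnfsf11 and Tnfrsf11b were higher in BAY at 1.35, 1.11, 1.65 and 0.64. None of the 8 was called with either centring, against 1.14% of all genes with the former and 1.77% with the latter.

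**Figure D3:**
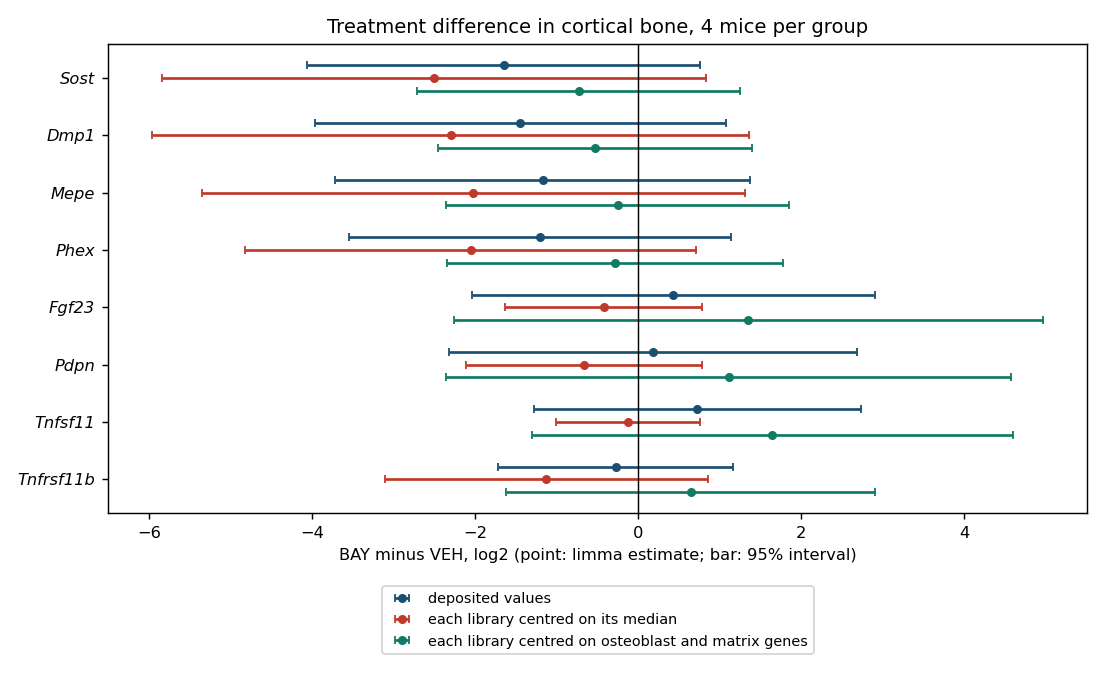
BAY minus VEH on the log2 scale for each gene in bone, as the limma estimate with its 95% interval, from the deposited values, with each library centred on its median, and with each centred on osteoblast and matrix genes. Every interval spans 0, and Fgf23, Pdpn and Tnfsf11 change sign with the median centring.

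Some of these values rested on few libraries. Sost was called without BAY mouse 3 (-2.66) and so was Dmp1 (-2.45), beside 0.655% of all genes, with an adjusted P = 0.859 for each in limma. Both were also called with a pseudocount of 1 CPM (-1.62 and -1.44), beside 0.501% of all genes, with an adjusted P = 0.9996 for each in limma. With this pseudocount the limma SE was 0.73 for Sost and 0.71 for Dmp1. On the deposited values it was 1.12 and 1.16, and the SD of log2 values within groups was 2.08 to 2.33. Without VEH mouse 3 the differences shrank to -0.72 for Sost, -0.47 for Dmp1, -0.17 for Mepe and -0.50 for Phex. Without BAY mice 1 and 2, whose libraries had the most muscle fibre RNA, they were -0.27 for Sost, -0.08 for Dmp1, 0.13 for Mepe and 0.42 for Phex. VEH mouse 2 and BAY mouse 4 had the highest olfactory receptor shares. Leaving out this pair gave -2.24 for Sost, -2.19 for Dmp1, -1.64 for Mepe and -1.99 for Phex. Both pairs were chosen after seeing the data.

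Sost, Dmp1 and Mepe kept close proportions while their levels spanned 63.9, 61.2 and 45.4 times from the lowest to the highest bone library. The ratio of Sost to Dmp1 CPM was 0.407, 0.673, 0.432 and 0.413 in VEH mice 1 to 4 and 0.394, 0.415, 0.407 and 0.416 in BAY mice 1 to 4. All libraries but VEH mouse 2 thus lay between 0.394 and 0.432. In VEH mouse 2 Sost made up 35 of 87 reads on both genes, or 40.2% (95% Wilson interval 30.6 to 50.7, counting error only), and in the other libraries the share was 28.3% to 30.2%. The log2 ratio of Sost to Dmp1 was -1.09 ± 0.35 (SD, n = 4) in VEH and -1.29 ± 0.04 (SD, n = 4) in BAY.

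The ratio of Mepe to Dmp1 was wider, from 0.145 in VEH mouse 1 to 0.346 in VEH mouse 2, and that of Phex to Dmp1 ran from 0.143 in VEH mouse 1 to 0.636 in BAY mouse 4. The SD of the log2 ratio to Dmp1 over the 8 libraries was 0.25 for Sost, 0.40 for Mepe, 0.80 for Phex and 1.55 for Tnfrsf11b, and 2.34 to 2.58 for Fgf23, Pdpn and Tnfsf11. As a description over 8 libraries that share depth and composition differences, Pearson's r of log2 values was 0.993 for Sost with Dmp1, 0.986 for Sost with Mepe and 0.940 for Sost with Phex. Tnfrsf11b had an r of 0.871 to 0.903 with these 4 genes. Fgf23 followed Tnfsf11 with r = 0.896, while Dmp1 and Tnfsf11 had r = -0.07. Outside VEH mouse 1, Fgf23 was at 0.308 to 1.69 times the olfactory receptor level and Tnfsf11 at 0.873 to 2.14 times. The part of reads at that level in their r was not tested.

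**Figure D4:**
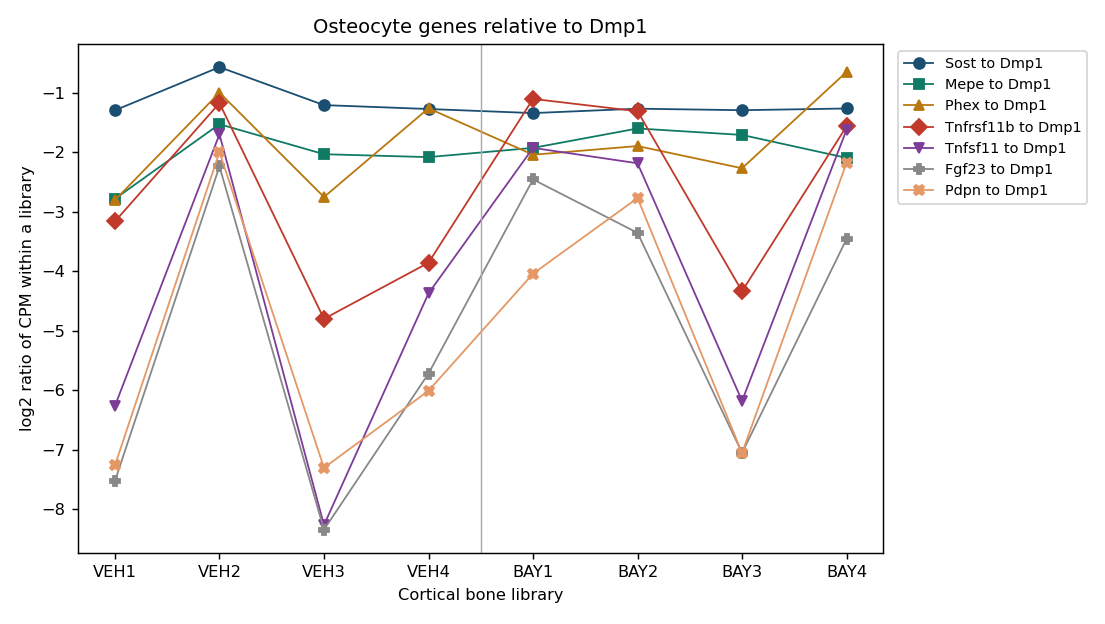
Log2 ratio of the CPM of the other 7 genes to that of Dmp1 within each bone library, with lines that only join the points of a gene. The Sost ratio is level except in VEH mouse 2, and the ratios of Fgf23, Pdpn and Tnfsf11 are lowest in VEH mouse 3, followed by VEH mouse 1.

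The ratio of Tnfsf11 to Tnfrsf11b, the ligand over its decoy receptor, was 0.117, 0.696, 0.0905 and 0.700 in VEH mice 1 to 4 and 0.565, 0.545, 0.278 and 0.962 in BAY mice 1 to 4. VEH mice 1 and 3 were the lowest and BAY mouse 4 the highest, with overlap between the groups. In VEH mice 2 and 4 and BAY mouse 4, which had the highest ratios, both genes were near the olfactory receptor level. There Tnfsf11 was at 0.873, 1.57 and 1.32 times that level and Tnfrsf11b at 0.934, 1.67 and 1.02 times. The part of reads at that level in the ratio was not tested. The mean log2 ratio was -1.90 ± 1.603 (SD, n = 4) in VEH and -0.90 ± 0.73 (SD, n = 4) in BAY, and no test was made.

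The levels of Sost, Dmp1, Mepe and Phex were high in the same libraries as osteoblast and matrix genes. The 16 osteoblast and matrix genes summed to 1709 to 29898 CPM in VEH and 1921 to 23779 CPM in BAY, with the highest sums in VEH mice 3 and 4 and BAY mouse 3. Neutrophil markers also had their highest sums in these libraries, at 532, 2094 and 1192 CPM in that order. Relative to Col1a1, the main collagen chain of bone, Dmp1 was at 0.0330, 0.0612, 0.125 and 0.0323 in VEH mice 1 to 4 and at 0.0387, 0.0360, 0.0632 and 0.0752 in BAY mice 1 to 4. This ratio spanned 3.87 times against 61.2 times for Dmp1 itself. Fewer osteocytes and less RNA per osteocyte cannot be told apart in such bulk samples.

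Muscle fibre RNA was highest in BAY mice 1 and 2, where Sost, Dmp1, Mepe and Phex were lowest in CPM. Relative to the olfactory receptor level, and with each library centred on its median, Sost, Dmp1 and Mepe were instead lowest in VEH mouse 2 and BAY mouse 4. All 12 muscle fibre markers had higher values in BAY, with a median log2 difference of 3.42, values of 4.26, 3.86 and 3.74 for the abundant Myh4, Myh1 and Atp2a1, and only Myl1 called (0.545% of all bone genes were called higher). The exact permutation P of Myl1 was 0.114, and it was not called with each library centred on its median. Neutrophil markers summed to 108 to 2094 CPM in VEH and 63.5 to 1192 CPM in BAY, and erythroid markers to 110 to 729 CPM and 86.5 to 365 CPM. Adipocyte markers summed to 80.4 to 146 CPM and 95.9 to 123 CPM, and tendon and cartilage markers to 387 to 1376 CPM and 263 to 656 CPM. None of the genes of these 4 lists or of the lymphatic list passed the test, and their medians were -0.97 (neutrophil, led by Ngp, Mpo and Ltf), -0.92 (erythroid, led by Hbb-bs, Hba-a2 and Hbb-bt), -0.05 (adipocyte, led by Fabp4, Lep and Plin1), -0.66 (tendon and cartilage, led by Col2a1, Prg4 and Comp) and 0.62 (lymphatic, led by Reln, Flt4 and Prox1). With each library centred on its median these became -1.82, -1.77, -0.90, -1.51 and -0.23, so that the lymphatic median turned sign, and that of the muscle fibre markers became 2.57. The part of these cells in the values of the 8 genes was not tested.

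**Figure D5:**
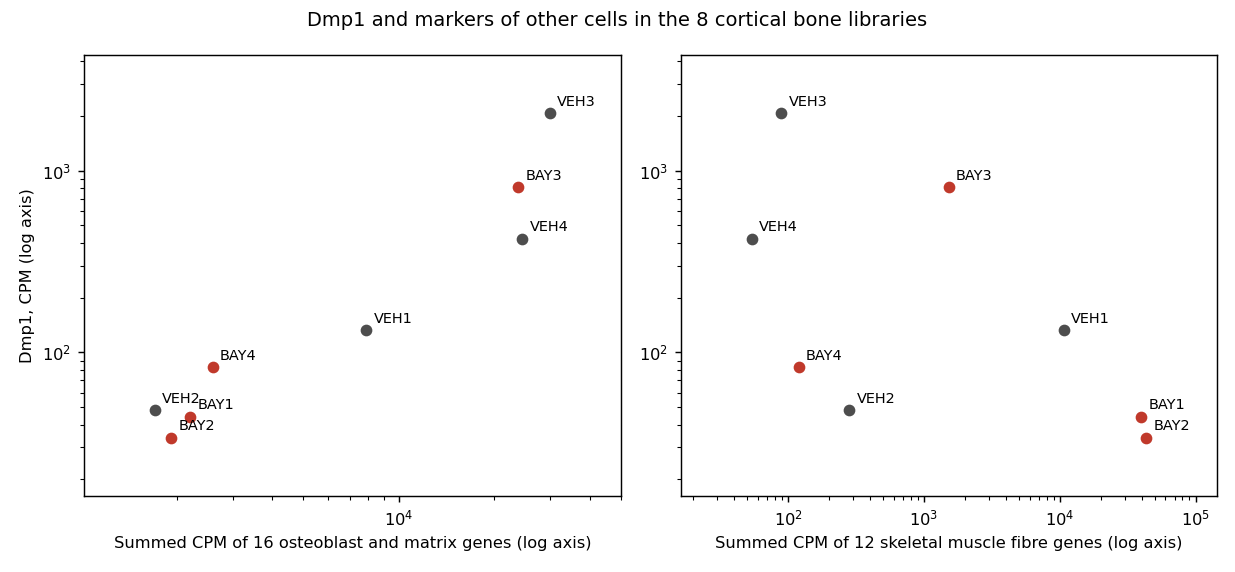
Dmp1 CPM against the summed CPM of 16 osteoblast and matrix genes (left) and of 12 skeletal muscle fibre genes (right) in the 8 bone libraries, on log axes, grey for VEH and red for BAY. Dmp1 is high where the osteoblast sum is high, and BAY mice 1 and 2 combine the highest muscle fibre sums with the lowest Dmp1.

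The genes whose log2 profile was most like the mean standardized profile of Sost, Dmp1, Mepe and Phex, among 16984 genes averaging 10 CPM or more, were Mrc2 (r = 0.991), Fat1 (0.989), Emp1 (0.986), Sash1 (0.984), Fam3c (0.983), Myo1e (0.983), Fgfr1 (0.983), Cxcl14 (0.982), Map4k4 (0.980) and Nrp2 (0.979). Mrc2 encodes an endocytic collagen receptor and Fgfr1 a receptor through which Fgf23 can signal. Without the pair of libraries farthest from the median of the profile, these r were 0.936 to 0.999. For single genes, the closest profiles were those of Dmp1, Sash1 and Mepe for Sost, of Sost, Mrc2 and Sash1 for Dmp1, of Fat1, Mrc2 and Timp3 for Mepe, and of Col22a1, Cd44 and Epb41l2 for Phex. Marveld1, Extl3 and Zfp608 were closest to Fgf23, Adgrg6, Bmp7 and Id4 to Pdpn, Gm7903, Klhl2 and Ptgfr to Tnfsf11, and Cped1, Soga1 and Ndrg1 to Tnfrsf11b. Without the pair of libraries farthest from the median of Fgf23, the r of its neighbours fell to 0.857 for Marveld1, 0.798 for Extl3 and 0.839 for Zfp608. Of 15 osteoblast and matrix genes with that mean, 9 were among the 200 genes most like the mean profile, and none of the 12 muscle fibre or 8 neutrophil markers was. Of the 13 further osteocyte genes with that mean 2 were among the 200, and of 11 RANKL signalling genes 3, of 11 sclerostin and Wnt genes 3, of 10 genes of Fgf23 and phosphate handling 1, and of 3 SIBLING genes 1. The median rank was 190.0 for osteoblast and matrix genes, 239 for SIBLING genes, 369 for RANKL signalling, 820.0 for neutrophil markers, 1440.0 for the further osteocyte genes, 1959 for Fgf23 and phosphate handling, 2909 for sclerostin and Wnt genes and 16694 for muscle fibre markers.

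Genes on which the 8 act were listed from general knowledge of their pathways. Of 16 genes of sclerostin and Wnt signalling, none passed a limma P of 0.05 in bone (0.64% of all genes did), with 9 higher and 7 lower in BAY and a median of 0.08, which became -0.77 with each library centred on its median (all bone genes 0.84 and -0.01). Their most abundant members were the sclerostin partner Lrp4 (184 ± 115 CPM in VEH and 119 ± 98.4 CPM in BAY, SD, n = 4), beta-catenin (Ctnnb1, 137 ± 92.5 and 93.6 ± 80.3 CPM) and the Wnt receptor Lrp6 (85.7 ± 36.1 and 91.3 ± 28.6 CPM). Of 12 genes of Fgf23 and phosphate handling, none passed, with a median of -0.17 (-1.02 centred), and Galnt3, which glycosylates Fgf23, was called lower after centring (-1.15, beside 1.14% of all genes called and 148 of 38933 called lower, adjusted P = 0.782 in limma, exact permutation P = 0.0571). Fgfr1 was the most abundant at 238 ± 198 and 134 ± 99.9 CPM, followed by the secretory kinase Fam20c at 100.5 ± 100.3 and 58.9 ± 44.6 CPM and the vitamin D receptor Vdr at 81.3 ± 57.2 and 61.0 ± 53.1 CPM.

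Of 14 genes of RANKL signalling and osteoclasts, none passed in bone, with a median of -0.46 (-1.32 centred). The osteoclast enzymes Mmp9 (214 ± 185 and 125 ± 168 CPM), Acp5 (148 ± 126 and 103.5 ± 155 CPM) and Ctsk (135 ± 105 and 94.4 ± 126 CPM) led this list. Of the 5 SIBLING genes, which include Dmp1 and Mepe, none passed, with a median of -1.17 (-2.02 centred), and Spp1 (osteopontin, 556 ± 527 and 326 ± 498 CPM) and Ibsp (bone sialoprotein, 511 ± 397 and 255 ± 331 CPM) had log2 differences of -1.27 and -1.16. The value of Dspp (dentin sialophosphoprotein), the only one of the 5 that was higher in BAY, was 1.90 (1.05 centred). The 16 osteoblast and matrix genes had 15 values lower in BAY and a median of -0.97 (-1.82 centred), none passing, with Col1a1, Col1a2 and Sparc at the top at -1.37, -1.33 and -1.10. Of 7 AhR targets and partners none passed in bone, with a median of 0.02 (-0.83 centred). Their median level was 0.865 times that of the olfactory receptor genes. The most abundant were the AhR repressor Ahrr (31.7 ± 31.8 and 49.5 ± 41.6 CPM), Cyp1b1 (39.9 ± 20.0 and 38.4 ± 19.9 CPM) and Arnt (34.8 ± 15.8 and 35.7 ± 18.9 CPM).

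Of 15 further osteocyte genes listed in bone, only Ostn, which encodes the secreted peptide osteocrin, passed the test and was called, where 0.64% of all bone genes were called and 0.545% were called higher. It had 6 reads in VEH mouse 1 and 0 in the other VEH mice, against 6, 5, 5 and 3 reads in BAY mice 1 to 4, and at these counts no fold is given. The levels did not overlap, as for 0.406% of bone genes, and were 0.863 CPM in VEH mouse 1 and 2.07 to 3.22 CPM in BAY (limma P = 0.0255, adjusted P = 0.887, exact permutation P = 0.0286), and the exact permutation P was 0.143 after median centring. Relative to the olfactory receptor level Ostn was highest in VEH mouse 1, at 2.38 times, and at 0.129 to 0.347 times in the 4 BAY libraries. The median of the list was -0.30 (-1.15 centred), and its most abundant genes Mef2c, Gja1 (connexin of osteocyte processes) and Cd44 were at 0.23, -0.78 and -0.82.

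In skeletal muscle the 4 listed genes were near the limit of detection. Dmp1 had 1, 0, 6 and 1 reads in VEH mice 1 to 4 and 2, 0, 0 and 1 reads in BAY mice 1 to 4. Phex had 2, 3, 5 and 0 reads against 1, 1, 4 and 0, and Tnfrsf11b had 2, 0, 1 and 0 reads against 2, 2, 0 and 1. With libraries at 0 in both groups, no fold is given for these genes. VEH mouse 3, whose column is named as a replacement, held the most reads on Dmp1 and Phex and also the highest Col1a1, at 86.4 CPM.

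Pdpn was the only one of them with reads in all 8 muscle libraries, at 4, 11, 18 and 7 reads in VEH mice 1 to 4 and 5, 5, 5 and 8 reads in BAY mice 1 to 4. Its level was 1.19 ± 0.667 CPM (SD, n = 4) in VEH and 0.818 ± 0.215 CPM (SD, n = 4) in BAY, with overlap. The log2 difference was -0.38 (SE 0.58, 95% confidence interval -1.62 to 0.87, limma P = 0.524, adjusted P = 0.846, exact permutation P = 0.486). None of the 4 genes was called in muscle, against 510 of 21011 genes (2.43%). No muscle gene passed an adjusted P of 0.05 in limma, and 2056 (9.79%) had an unadjusted P under 0.05.

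Among the partners of these genes in muscle, 2 of 13 sclerostin and Wnt genes rose in BAY at an unadjusted limma P under 0.05, as 6.71% of all muscle genes did. These were the co-receptor Lrp5 (34.6 ± 7.12 CPM in VEH and 46.2 ± 3.21 CPM in BAY, SD, n = 4, log2 0.44) and the Wnt target Axin2 (7.39 ± 1.53 and 11.6 ± 3.13 CPM, log2 0.64), and the list's median was 0.33 beside 0.06 for all muscle genes. Of 9 genes of Fgf23 and phosphate handling, Fgfr1 (0.38) and the phosphate transporters Slc20a1 (0.51) and Slc20a2 (0.31) rose. Of 11 RANKL signalling genes, the transcription factor Nfatc1 rose by 0.39. None of these 6 genes reached a fold change of 2, and their adjusted P values were 0.356 to 0.478 in limma.

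Of 14 further osteocyte genes in muscle, 1 was called, the transcription factor Irx5, with 3, 2, 5 and 1 reads in VEH mice 1 to 4 and 5, 4, 6 and 14 reads in BAY mice 1 to 4 (log2 1.69, limma P = 0.0436, adjusted P = 0.499, exact permutation P = 0.0286; 1.33% of muscle genes were called higher). The groups did not overlap in CPM for Irx5, a state shared by 5.73% of muscle genes. Of 10 osteoblast and matrix genes none passed, with a median of -0.35, and neither of the 2 listed SIBLING genes did. Of 6 AhR targets and partners, the direct target Cyp1a1 fell from 1.25 ± 0.290 to 0.491 ± 0.154 CPM (SD, n = 4, log2 -1.38, limma P = 0.0279, adjusted P = 0.455, exact permutation P = 0.0286), and 1.09% of muscle genes were called lower. Among marker lists in muscle, the adipocyte gene Plin1 was called lower (limma P = 0.0368, exact permutation P = 0.0857), with 37.9 CPM in VEH mouse 3 against 0.275 to 2.33 CPM in the other libraries. The tendon factor Scx, 1 of 7 listed tendon and cartilage genes, rose by 0.63 without a fold change of 2, where 6.71% of all muscle genes rose and 5.73% had groups that did not overlap, as Scx did (limma P = 0.0171, exact permutation P = 0.0286), and no muscle fibre, erythroid, lymphatic or neutrophil marker passed.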

How the data were processed

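The authors trimmed the reads, aligned them to mm39 with STAR (version 2.7.8a), assigned them to Ensembl 104 genes by the E/M method of Partek, converted counts to CPM and deposited log2 of CPM plus a small offset. From the smallest values the offset is 0.0001 CPM in bone and 0.0004 CPM in muscle. The size of 1 read was recovered from the steps between low values, and 81.5% to 88.6% of values up to 50 reads were whole to within 0.02. Every listed gene has at least 5 reads over its 8 libraries.

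BAY was compared with VEH per tissue by limma (version 3.58.1, R version 4.3.3; lmFit and eBayes with trend, two-sided, no filter, no covariate) in place of the authors' limma-voom, and each gene by exact permutation of 8 libraries. Fold changes are on the log2(CPM + offset) scale. P values were Benjamini-Hochberg adjusted over all genes of the table. The fitting code was also run on simulated data, and the outcome of that run is not given here. Each library is 1 mouse. Exon lengths and mm39 coordinates came from GENCODE M39, promoters from RefSeq on GRCm38.p6. Alternatives were other pseudocounts, a filter, other scalings and weights, voom on recovered reads, the replicate number as a block, and libraries left out. Tables were normalized separately and were not compared between tissues.

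The 8 genes and 13 lists were chosen with earlier results of these data known. Named genes are the 8, the 3 highest by mean CPM in bone of each list, listed genes that were called, the 10 genes most like the mean profile and the 3 most like each of the 8. Genes past P of 0.05 but not called were named after their values were seen. Python (version 3.11.15) with numpy (2.4.6), pandas (2.3.3), scipy (1.17.1) and matplotlib (3.10.9) did the rest.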

Additional observations from a re-analysis of the deposited data

How the results depend on the processing

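Sost, Dmp1, Mepe and Phex kept their sign under every alternative except that Mepe (0.13) and Phex (0.42) turned without BAY mice 1 and 2, a choice made after seeing the data that called 106 bone genes. With log2(CPM + 1), Sost (-1.62, P = 0.0287) and Dmp1 (-1.44, P = 0.0441) were called in limma (no exact test was made on this scale). The replicate numbers do not pair mice (correlations of same-numbered deviations -0.11 to 0.19 in bone and -0.09 to 0.01 in muscle), and with the number as a replicate block Sost (-1.65, P = 0.0072), Dmp1 (-1.45, P = 0.0156) and Phex (-1.21, P = 0.0395) were called in limma, with 305 bone genes in all. The adjusted P of these 4 genes was 0.494 to 1 over the alternatives. Values that turned sign were, with median centring over genes of at least 1 CPM or over all genes, Fgf23 (-0.42 and -0.46), Pdpn (-0.66 and -0.71) and Tnfsf11 (-0.13 and -0.17); with quantile normalization, Fgf23 (-0.84) and Pdpn (-0.91); with array weights, Fgf23 (-0.46), Pdpn (-1.45) and Tnfsf11 (-0.023); with the olfactory receptor level subtracted, a choice made after seeing the data, Fgf23 (-0.57) and Pdpn (-0.78), while Phex moved to -3.09 from -1.21; and Tnfrsf11b with osteoblast centring (0.64) and without BAY mice 1 and 2 (0.22).

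Leaving out each mouse in turn gave -2.66 to -0.72 for Sost, -2.45 to -0.47 for Dmp1, -2.22 to -0.17 for Mepe, -2.03 to -0.50 for Phex, -0.44 to 0.83 for Fgf23, -0.70 to 0.61 for Pdpn, 0.01 to 1.19 for Tnfsf11 and -0.60 to 0.18 for Tnfrsf11b in bone, and -0.76 to -0.08 for Pdpn in muscle. Signs turned without VEH mouse 1 (Fgf23 -0.44, Pdpn -0.70), BAY mouse 4 (Pdpn -0.33) and VEH mouse 3 (Tnfrsf11b 0.18). Called bone genes numbered 249 (212 higher, 37 lower), and 82 with a filter at 1 CPM, 443 (295 higher, 148 lower) and 452 with the 2 median centrings, 705 (250 higher, 455 lower) with quantile normalization, 689 (685 higher, 4 lower) with osteoblast centring, 408 without a trend, 901 with array weights and 1433 (1431 higher, 2 lower) with voom on recovered reads, and 115 to 1116 with each mouse left out. The number was 1116 without VEH mouse 2, 115 and 130 without VEH mice 3 and 4, and 157 and 155 without BAY mice 1 and 2. Called muscle genes numbered 510, but 52 with log2(CPM + 1), 193 with the filter and 448 to 567 with each mouse left out. Adjusted P values under 0.05 were reached in bone by 1 gene with log2(CPM + 1) and 31 without a trend, and in muscle by 23 with log2(CPM + 1), 35 with log2(CPM + 0.1), 2 with the filter, 40 without a trend, 25 with voom and 1 without VEH mouse 4. The causes were not tested. Depth limits Fgf23, Pdpn and Tnfsf11 in bone, at 5 to 37 reads, and all 4 genes in muscle.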

Other observations

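The steadiness of each gene's ratio to Dmp1 was compared over 16983 bone genes averaging 10 CPM or more, a measure chosen after the values were seen. By the SD of the log2 ratio over 8 libraries, Sost ranked 1 (0.25) and Mepe 2 (0.40), followed by the matrix genes Spp1 (0.56), Tnc (0.62) and Col1a1 (0.70), then Bglap2 (0.74), Acp5 (0.75), Col1a2 (0.76), Sema7a (0.76) and Cxcl14 (0.77). Phex ranked 11 (0.80), Tnfrsf11b 637 (1.55) and Tnfsf11 6927 (2.58). Spp1, Col1a1 and Bglap2 are products of osteoblasts as well as of osteocytes, and Acp5 is an enzyme of osteoclasts.

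Sost relative to Col1a1 was 0.0134, 0.0412, 0.0541 and 0.0134 in VEH mice 1 to 4 and 0.0152, 0.0149, 0.0257 and 0.0313 in BAY mice 1 to 4, with overlap between the groups. The mean log2 ratio was -5.31 ± 1.06 (SD, n = 4) in VEH and -5.60 ± 0.54 (SD, n = 4) in BAY, and no test was made.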
